A study of Mus musculus with 14 samples.

Results

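The tissue difference common to both embryonic stages was measured as 1 contrast over 14 RNA-seq libraries of mouse lower urinary tract epithelium. The urethral groups of E14.5 and E18.5 were averaged and subtracted from the average of the bladder groups, and 14 of the 14 libraries of the series enter it. The groups were bladder epithelium at E14.5 (n = 4), urethral epithelium at E14.5 (n = 4), bladder epithelium at E18.5 (n = 3) and urethral epithelium at E18.5 (n = 3). All were untreated wildtype CD-1 embryos, and the urethra was its proximal, pelvic part. The protocol describes pools of the females of a litter and 3 litters for each sample type, whereas 4 libraries for each tissue are labelled at E14.5, so whether those 4 are separate litters is not settled. The epithelium was peeled from the mesenchyme with forceps after cold trypsin, so the preparations are enriched tissue layers and not sorted cells.

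A gene was called higher in a tissue where edgeR's quasi-likelihood F test gave a Benjamini-Hochberg adjusted p under 0.05 over the 18286 genes tested, of 55228 listed. It was called held where that was met at each stage on its own with the same sign, and where the log2 fold changes at the stages differed by at most 1 (2-fold). Of the 18286 genes, 2682 (14.7%) were held, 1500 higher in bladder (8.20%) and 1182 higher in urethra (6.46%). Counts of list members below are to be read beside the shares over all tested genes. Besides those of held genes, these were 25.6% in bladder and 22.4% in urethra for the averaged contrast. At E14.5 they were 24.3% and 21.5%, and at E18.5 18.9% and 15.4%. Opposite signs with both stages passing were found in 2.95%. Levels are given in CPM, counts scaled to the size of the library, and log2 fold changes are bladder over urethra, so a negative one means higher in urethra. The rule for held genes uses the calls at both stages, so the agreement of the stages in these genes is a description and was given no test of its own.

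The bladder is lined by urothelium, a stretchable layered epithelium whose surface cells carry rigid plaques of uroplakin proteins, and much of it descends from the endodermal urogenital sinus. The pelvic urethra comes from the same sinus farther caudally and forms a stratified epithelium that responds to sex hormones and gives rise to glands in both sexes. Transcription factors of the Irx, Sp, Tfap2 and Hox families are known for setting position along body and limb axes, and the sinus expresses the posterior Hox genes in a graded way.

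Depth ran from 21101269 to 36810672 counts per library, with 21966 to 24258 genes detected. The 7 genes St14, Spint2, Spint1, Esrp2, Esrp1, Cdh1 and Epcam, which mark epithelium, were present in every library, with summed levels of 4017 to 4642 CPM in E14.5 bladder, against 1657 to 3662 CPM in E14.5 urethra. The sums at E18.5 were 2653 to 3415 CPM in bladder, against 3575 to 4173 CPM in urethra. Replicate 1 of the E14.5 urethra stood apart in many bladder-side genes, for example with 232 CPM of Upk3a against 12.6 to 34.2 CPM in the other 3 libraries of its group. Without it, 2776 genes were held, of which 2450 were among the 2682. Among the genes described below, Ttr, Sptssb, Degs2, Sele, Vsig2, Dmgdh, Gata6, Upk1a, Upk1b, Upk3a, Upk3b, Snx31, Tmprss2, Ccnb1, Ccnb2, Ccna2, Cdk1 and Cdc20 in bladder were not held without it. In urethra the same was true of Irx2, Krt15, Krt10, Dsg3, Dsc3, Lgals7, Lgr6, Ephb3 and Ppp1r36. Settings are counted below over 23 other fits, which changed the scaling, filter, tool, libraries or covariates and kept the 2-fold size limit.

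The averaged contrast called 8790 genes (48.1%), 4685 higher in bladder (25.6%) and 4105 higher in urethra (22.4%). Held genes made up 30.5% of these calls, while 5044 of the averaged calls passed at 1 stage alone and 58 had opposite signs at the stages. The held genes on the bladder side differed by a median of 0.69 in log2 (1.61-fold), and 433 of the 1500 by at least 2-fold in the average. On the urethral side the median size was 0.91 in log2 (1.87-fold), and 538 of the 1182 differed by at least 2-fold. Differences of at least 8-fold were fewer on the bladder side, 41 genes, than on the urethral side, 87 genes. Over all tested genes the median averaged log2 fold change was 0.016. When libraries were scaled on the 7 epithelial genes in place of all genes, these medians moved to -0.31 in the average, -1.01 for E14.5 and 0.35 for E18.5. Averaged calls were then 1306 in bladder and 5282 in urethra, and 307 bladder and 473 urethral genes were held.

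**Figure D1:**
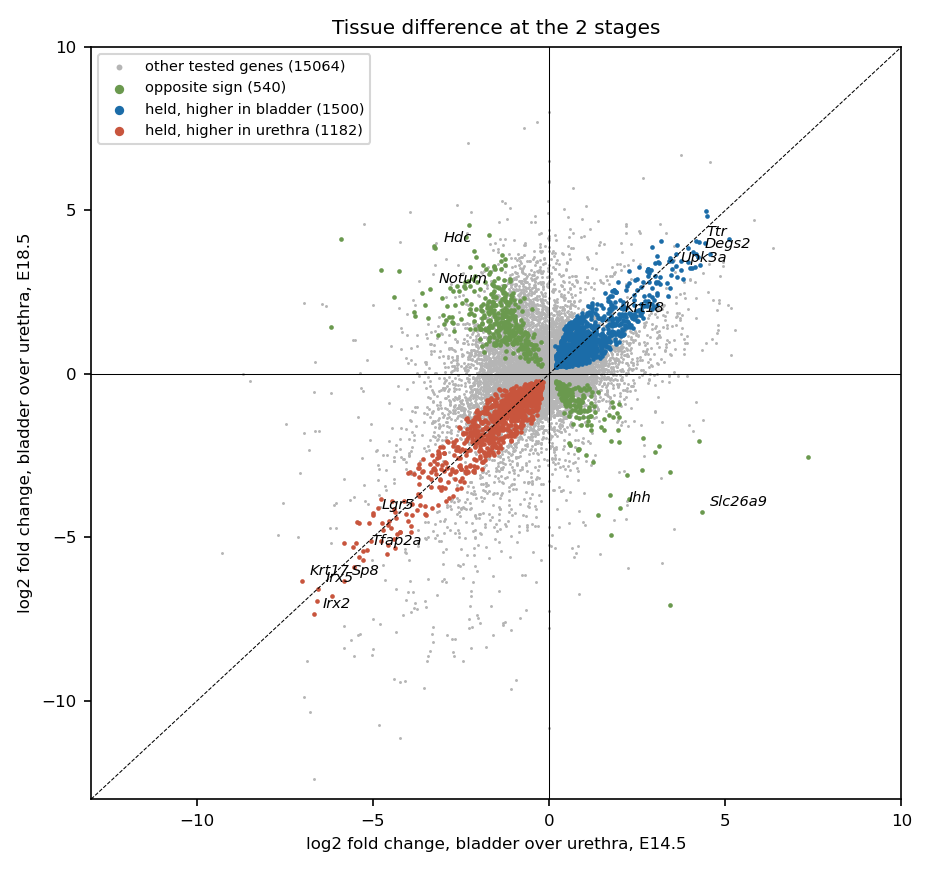
Log2 fold change of bladder over urethra at E14.5 (x axis) and at E18.5 (y axis) for each of the 18286 tested genes, with held genes in blue (1500 higher in bladder) and red (1182 higher in urethra) and genes of opposite sign in green (540). The dashed line marks equal size at both stages, along which the held genes lie by their definition, and the urethral arm reaches larger sizes than the bladder arm.

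Uroplakin genes were held on the bladder side. In tissue layers of this kind fewer cells of a type and less RNA per cell cannot be told apart, here and in all results that follow. Of 11 genes of the plaque and superficial cells, 6 were held higher in bladder and 0 higher in urethra, with a median averaged log2 fold change of 2.21. These were Upk1a, Upk1b, Upk2, Upk3a and Upk3b, which encode the membrane proteins of the plaque, and Snx31, a sorting nexin of urothelial surface cells. Upk3a (chromosome 15, 85017141 to 85022547, GRCm38) stood at 1382, 830, 449.8 and 838 CPM in E14.5 bladder, against 232, 32.1, 34.2 and 12.6 CPM in E14.5 urethra. At E18.5 it stood at 1480, 1906 and 2094 CPM in bladder, against 135, 191 and 259.5 CPM in urethra. Every bladder library was above every urethral library of its stage, and the averaged log2 fold change was 3.36 (SE 0.57, 10.3-fold, adjusted p = 0.000412). Upk2 (chromosome 9, 44452715 to 44454976), which encodes the small partner of uroplakin 1a, had 948, 850, 642 and 849.9 CPM in E14.5 bladder, against 204.5, 79.85, 81.6 and 31.6 CPM in E14.5 urethra. Its E18.5 levels were 841, 1200 and 1206 CPM in bladder, against 136, 137 and 187 CPM in urethra. The tissues again did not overlap at either stage, and the fold was 7.65 (log2 2.94, SE 0.33, adjusted p = 1.82e-05). Upk3b was 8.25-fold higher, Upk1b 4.62-fold, Upk1a 4.59-fold and Snx31 5.48-fold, each without overlap at both stages.

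The other members of this list passed at both stages with sizes more than 2-fold apart, or at 1 stage. Krt20, the keratin of umbrella cells, passed at both stages with log2 fold changes of 2.83 at E14.5 and 1.795 at E18.5. Psca, Mal and Rab27b passed at E14.5 alone, and Upk3bl passed at E18.5 alone, where its level was higher in urethra. Without replicate 1 of the E14.5 urethra, 1 of the 11 was held, Upk2, and the medians of the list were 3.67 at E14.5 and 1.82 at E18.5. With the mean level of the mesenchyme genes as a covariate 6 of the 11 were held, among them Rab27b and not Upk3a, and with scaling on the epithelial genes 8 were.

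Of 18 tested transcription factors of urothelium, 1 was held, a share below the 8.20% of all tested genes held in bladder. It was Gata2, a GATA factor of urogenital development, at 318 to 466 CPM in E14.5 bladder, against 109 to 267 CPM in E14.5 urethra. At E18.5 Gata2 stood at 157.5 to 229.8 CPM in bladder, against 101 to 129.5 CPM in urethra, and its fold was 1.96 (adjusted p = 0.000912). Gata2 was not held under 9 of the 23 other fits, and with the mesenchyme covariate Pparg was the 1 held member. Pparg, the nuclear receptor of urothelial differentiation, was higher in bladder at both stages, and its log2 fold change of 3.63 at E14.5 was larger than that of 1.85 at E18.5 (interaction adjusted p = 0.0361). Tbx2 also passed at both stages, with log2 fold changes of 0.88 at E14.5 and 2.27 at E18.5. Klf5 and Elf3, a zinc finger and an ETS factor of epithelial differentiation, changed sides. Elf3 was higher in bladder at E14.5 (log2 1.18, adjusted p = 0.0136) and higher in urethra at E18.5 (log2 -1.57, adjusted p = 0.00941).

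Genes of cholesterol synthesis were higher in bladder at both stages by amounts of about the same size. All 19 tested enzymes of the mevalonate and sterol pathway were higher in bladder in the averaged contrast, 15 were held and 0 were higher in urethra at either stage. The list had a median averaged log2 fold change of 0.87, with 0.96 at E14.5 and 0.75 at E18.5. Mvk (chromosome 5, 114444269 to 114460591), the mevalonate kinase, stood at 74.1, 73.6, 76.5 and 69.6 CPM in E14.5 bladder, against 41.0, 34.6, 36.2 and 31.2 CPM in E14.5 urethra. At E18.5 it had 56.3, 70.5 and 63.6 CPM in bladder, against 35.0, 41.8 and 36.5 CPM in urethra. The 4 groups were tight, with no overlap between tissues, and the fold was 1.86 (log2 0.89, SE 0.075, adjusted p = 2.29e-06). Msmo1, the methylsterol oxidase, had the highest fold of the 15 at 2.52. Hmgcs1, the synthase of an early step of the mevalonate branch, was 1.76-fold higher, Lss, the lanosterol synthase, 2.2-fold, and Mvd, the last enzyme of the mevalonate branch, 2.08-fold. Pmvk, Idi1, Tm7sf2 and Sc5d passed at E14.5 alone, a stage at which 24.3% of all tested genes were higher in bladder and 21.5% in urethra. With the mesenchyme list as a covariate 13 of the 19 were held. Scaled on the epithelial genes, 1 was held, Msmo1, and the median was 0.57 in the average and -0.001 at E14.5.

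Promoter sequence was compared for these enzymes because they moved together. RefSeq promoters (GRCm38.p6) were found for 10 of the 15 held enzymes, with 12 promoters in all, and Fdps, Fdft1 and Sqle were among those with no entry. The letters CCAAT, read on both strands, lay within the 250 bases before the start in 10 of the 12 promoters (83.3%) and in 10 of 10 genes. Over all 32851 promoters of the same length the share was 33.8%, and over the promoters of tested genes it was 34.7%. The promoters of held genes as a whole held it in 36.8% where higher in bladder and 34.1% where higher in urethra. The letters TCACNCCAC of a sterol regulatory element were found in 1 of the 12 promoters (8.33%), that of Hmgcs1, against 1.05% of all promoters. A match is a run of letters and not a shown site. The 100 bases just before the start are given 5′ to 3′ on the strand of the gene for 6 of the enzymes, with each CCAAT or its reverse ATTGG in capitals. They are Mvk at chr5:114444169-114444268 (+), Mvd at chr8:122443423-122443522 (-), Msmo1 at chr8:64733579-64733678 (-), Lss at chr10:76531505-76531604 (+), Hmgcs1 at chr13:119690251-119690350 (+) and Cyp51 at chr5:4104698-4104797 (-).
Mvk: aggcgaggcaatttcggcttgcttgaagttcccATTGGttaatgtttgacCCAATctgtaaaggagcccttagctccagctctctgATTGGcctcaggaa
Mvd: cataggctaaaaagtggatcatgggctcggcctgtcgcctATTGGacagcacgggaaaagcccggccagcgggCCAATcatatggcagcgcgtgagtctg
Msmo1: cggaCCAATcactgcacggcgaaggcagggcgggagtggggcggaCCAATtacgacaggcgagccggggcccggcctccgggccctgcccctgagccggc
Lss: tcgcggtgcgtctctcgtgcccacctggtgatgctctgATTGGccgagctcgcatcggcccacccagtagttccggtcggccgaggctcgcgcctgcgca
Hmgcs1: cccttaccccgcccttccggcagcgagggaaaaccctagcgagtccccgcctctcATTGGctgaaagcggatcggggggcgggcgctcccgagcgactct
Cyp51: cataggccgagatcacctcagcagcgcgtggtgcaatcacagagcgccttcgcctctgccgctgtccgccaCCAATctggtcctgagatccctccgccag
The windows of Mvk, Mvd and Msmo1 hold more than 1 copy, and those of Lss, Hmgcs1 and Cyp51 hold 1 each.

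Krt8 and Krt18, the partner keratins of simple and luminal epithelium, were the 2 held of 6 tested simple keratin genes. Krt18 (chromosome 15, 102028180 to 102032027) had 1496, 1389, 987 and 1475 CPM in E14.5 bladder, against 567, 303, 335 and 232 CPM in E14.5 urethra. Its E18.5 levels were 1588, 2481 and 2818 CPM in bladder, against 571, 805 and 738 CPM in urethra. The lowest bladder library of each stage exceeded the highest urethral one, and the fold was 3.48 (adjusted p = 2.00e-05). Krt8 was 2.57-fold higher (adjusted p = 4.25e-05). Of 19 tight junction genes, 2 were held, a share near the 8.20% of all tested genes, the claudins Cldn1 (3.00-fold) and Cldn8 (2.51-fold), while 11 passed at E14.5 alone and Ocln and Marveld2 changed sides. Of 13 water, urea and sodium transport genes 2 were held higher in bladder, against 8.20% of all tested genes. These were Aqp11, an intracellular aquaporin (2.10-fold), and Atp1b3, a subunit of the sodium pump (1.42-fold). Among 10 anion and vitamin transport genes, Slc12a2, the sodium, potassium and chloride cotransporter, was held higher in urethra (log2 -0.97, adjusted p = 4.35e-05). Its log2 fold changes of -0.56 at E14.5 and -1.37 at E18.5 differed (interaction adjusted p = 0.031) within the 2-fold limit.

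Of 11 tested hindgut and hepatic genes, 3 were held higher in bladder. Gpa33, an intestinal epithelial surface antigen, was 4.21-fold higher and Gata6, a GATA factor of endoderm, 3.25-fold. Ttr (chromosome 18, 20665280 to 20674321), the thyroid hormone and retinol carrier transthyretin, had 353, 159, 42.1 and 184 CPM in E14.5 bladder, against 35.6, 1.15, 2.49 and 0 CPM in E14.5 urethra. The later stage had 135, 69.3 and 107.5 CPM in bladder, against 3.80, 6.17 and 9.01 CPM in urethra. The tissues did not overlap, yet the libraries of a group varied widely, and the log2 fold change of 4.13 had an SE of 0.89 (adjusted p = 0.00199). Ttr was not held under 10 of the 23 other fits. Without replicate 1 of the E14.5 urethra its log2 fold change was 5.63 and Gpa33 was the 1 held member of the list. Among 17 xenobiotic genes 3 were held higher in bladder, against 8.20% of all tested genes. These were the glutathione transferases Gstm2 (2.31-fold), Gstp1 (1.5-fold) and Mgst2 (6.52-fold). Other transferases of the list were not held. Gstt1 and Gsto1 had opposite signs at the stages, and Gstm1 and Mgst1 passed at E14.5 alone. Gsta4 passed at both stages with sizes more than 2-fold apart. Srd5a1 and Srd5a3, named as steroid 5-alpha reductases, were 2.94-fold and 1.44-fold higher in bladder.

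Among the 12 genes with the largest averaged log2 fold change, at least 5 CPM in the higher tissue and no overlap were Ttr, Sptssb, Degs2, Slc47a1, Sele, Vsig2, Dmgdh, Itih2, Scube2, Tdrp and Upk3a, from 17.6-fold down to 10.3-fold. Degs2 (chromosome 12, 108678711 to 108702315), which hydroxylates and desaturates the ceramide backbone, had 78.65, 48.65, 27.8 and 50.4 CPM in E14.5 bladder, against 7.22, 0.984, 2.73 and 0.473 CPM in E14.5 urethra. By E18.5 it had 72.1, 126 and 112 CPM in bladder, against 5.30, 8.14 and 10.85 CPM in urethra. Every urethral library was below the lowest bladder library of its stage, and the log2 fold change was 3.93 (SE 0.47, 15.2-fold, adjusted p = 3.29e-05). Sptssb, a small subunit of serine palmitoyltransferase that opens sphingolipid synthesis, was 17.4-fold higher with a wide spread (log2 4.12, SE 0.94, adjusted p = 0.00304). It was not held under 12 of the 23 other fits, and its log2 fold change was 5.76 without replicate 1 of the E14.5 urethra. Without that library Degs2 (4.43), Sele (4.29), Vsig2 (4.30), Dmgdh (4.42) and Upk3a (4.14) also had larger averaged log2 fold changes and were not held. Slc47a1, an exporter of organic cations, was 13.8-fold higher. Itih2, a hyaluronan-binding serum protein gene, stood at 36.0 to 102.5 CPM in E14.5 bladder, against 2.17 to 9.24 CPM in E14.5 urethra, and was 12.1-fold higher over both stages (adjusted p = 3.06e-06). Itih2 and Tdrp, a gene of unsettled function in this tissue, were held under all 23 other fits. Sele encodes E-selectin, known from activated endothelium, and was 13.1-fold higher, with 27.7 to 51.75 CPM in E14.5 bladder and 36.0 to 55.5 CPM in E18.5 bladder, against 0.315 to 6.82 CPM in E14.5 urethra and 3.85 to 5.51 CPM in E18.5 urethra. The 10 endothelial list genes summed to 31.7 to 140 CPM in E14.5 bladder, against 31.8 to 238 CPM in E14.5 urethra, and 0 of them were held. At E18.5 they summed to 319 to 465 CPM in bladder, against 71.2 to 113.5 CPM in urethra. At that stage 8 of the 10 were higher in bladder, against 18.9% of all tested genes. The part of the endothelial genes in the difference of Sele was not tested.

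**Figure D2:**
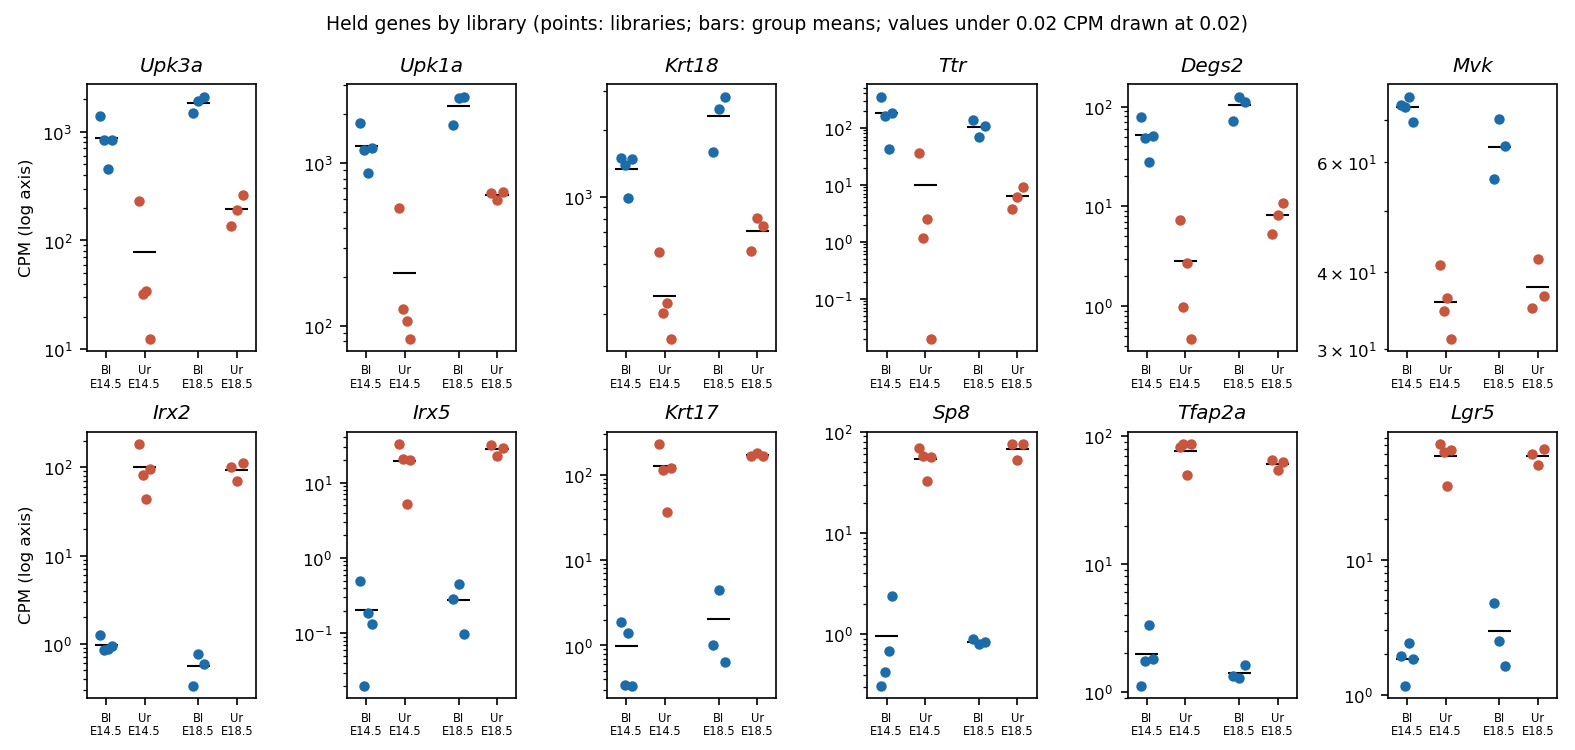
Level of 12 held genes in every library, in CPM on a log axis, with bladder libraries in blue to the left of urethral libraries in red at each stage and black bars at group means. For the upper 6 genes each bladder library lies above each urethral library of its stage, and for the lower 6 each lies below. Irx2, for example, has bladder libraries at 0.333 to 1.24 CPM, against urethral libraries at 43.3 to 185 CPM. Lack of overlap was a condition for choosing Upk3a, Ttr, Degs2 and the lower 6, so for these it is a description.

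On the urethral side the 12 largest held differences by the same rule were those of Irx2, Krt17, Irx5, Sp8, Tfap2a, Arhgef38, Pcdhac2, Irs4, Lgals7, Lgr5, Irx3 and Sall3. Of 4 tested Iroquois genes, 3 were held and all 4 were higher in urethra at both stages. Irx2 (chromosome 13, 72628820 to 72634198) had 1.24, 0.854, 0.875 and 0.942 CPM in E14.5 bladder, against 185, 81.1, 43.3 and 94.8 CPM in E14.5 urethra. At E18.5 it had 0.333, 0.762 and 0.591 CPM in bladder, against 99.75, 70.6 and 111 CPM in urethra. The bladder level was near or under 1 CPM in every library, and the averaged log2 fold change of -7.01 (SE 0.36, 129-fold, adjusted p = 1.34e-07) was the largest size among all held genes. Irx5 (chromosome 8, 92357625 to 92376286) was at 0 to 0.497 CPM in E14.5 bladder, against 5.26 to 32.9 CPM in E14.5 urethra. At E18.5 Irx5 was at 0.0984 to 0.457 CPM in bladder, against 22.7 to 31.7 CPM in urethra. Its log2 fold changes, -6.57 at the earlier and -6.56 at the later stage, were close to equal. Irx3 was 24.6-fold higher in urethra, and Irx1 passed at both stages with log2 fold changes of -5.42 and -7.97, too far apart to be held. Irx4 and Irx6 did not pass the filter on low counts. Without replicate 1 of the E14.5 urethra Irx3 and Irx5 were held and Irx2 was not, and with scaling on the epithelial genes Irx2 alone was held.

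Sp8 (chromosome 12, 118846329 to 118852576), a Sp-family factor of limb and genital outgrowth, had 0.310, 0.427, 0.691 and 2.39 CPM in E14.5 bladder, against 69.1, 58.2, 32.6 and 56.9 CPM in E14.5 urethra. The later stage had 0.905, 0.800 and 0.837 CPM in bladder, against 75.3, 53.1 and 76.1 CPM in urethra. The gap between the tissues exceeded the spread within any group, with a 67.5-fold difference (log2 -6.08, SE 0.40, adjusted p = 6.20e-07), and Sp8 was held under all 23 other fits. Tfap2a, which encodes the AP-2 alpha factor of surface ectoderm and neural crest, had 1.12 to 3.31 CPM in E14.5 bladder, against 50.1 to 87.2 CPM in E14.5 urethra. At E18.5 Tfap2a had 1.295 to 1.62 CPM in bladder, against 54.7 to 65.3 CPM in urethra with no overlap (log2 -5.36, SE 0.23, adjusted p = 4.23e-08). Tfap2b and Barx2, a homeobox factor of stratified epithelia, were also held, at 10.6-fold and 15.2-fold. Together 4 of 9 genes of the Pax, Barx, Sp and AP-2 list were held in urethra and 0 in bladder. In the averaged contrast 2 of the 9 were higher in bladder, against 5 in urethra, and Tfap2c, another AP-2 gene, had opposite signs at the stages. Pax9 passed at both stages and was at 0 to 0.0984 CPM in E18.5 bladder, against 29.7 to 37.7 CPM in E18.5 urethra.

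Genes of the Eya and Dach families and their sine oculis partners act in 1 network. In the averaged contrast 9 of 10 tested members were higher in urethra (22.4% of all tested genes), and 3 were held there (6.46%). Six4 had 26.6 to 28.6 CPM in E14.5 bladder, against 45.4 to 64.6 CPM in E14.5 urethra, and 12.3 to 17.3 CPM in E18.5 bladder, against 47.9 to 51.7 CPM in E18.5 urethra. Its log2 fold change averaged -1.42 (SE 0.095, adjusted p = 5.71e-07), and the sizes of -1.10 at E14.5 and -1.74 at E18.5 differed (interaction adjusted p = 0.0269) within the 2-fold limit. Eya4, a transcriptional phosphatase, was 3.73-fold and Dach1, a repressor partner, 1.69-fold higher in urethra. Six2, Eya2 and Dach2 passed in the same direction at both stages with sizes more than 2-fold apart. With the mesenchyme covariate Six4 was the 1 held member.

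Posterior Hox genes did not all lie on 1 side. Hoxa13, Hoxd10, Hoxd11 and Hoxd12, of 14 tested posterior Hox genes, were held higher in urethra, and Hoxa11 was held higher in bladder. Hoxd12 (chromosome 2, 74675013 to 74677705) had 4.25, 3.05, 12.75 and 5.38 CPM in E14.5 bladder, against 31.8, 58.7, 62.2 and 58.0 CPM in E14.5 urethra. By E18.5 it had 2.19, 1.26 and 0.984 CPM in bladder, against 18.9, 14.3 and 18.3 CPM in urethra. Bladder and urethra stayed apart at both stages although both tissues had lower values at E18.5, and the fold was 9.85 (adjusted p = 7.85e-06). Hoxa13, which marks the caudal end of the axis, differed less, with 1.92-fold (log2 -0.94, SE 0.105, adjusted p = 1.62e-05). Hoxa11 differed by 1.48-fold (log2 0.57, SE 0.097, adjusted p = 0.000392), its tissues overlapped at E14.5, and it lost its held status under 13 of the 23 other fits. Hoxa9, Hoxa10, Hoxb9, Hoxc9, Hoxc10, Hoxc11 and Hoxd9 passed at neither stage. With the mesenchyme covariate Hoxa13 was the 1 held member.

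Of 12 Sox genes tested 3 were held higher in urethra, against 6.46% of all tested genes. These were Sox4 (2.57-fold), Sox6 (2.72-fold) and Sox11 (7.14-fold). Sox2, a factor of foregut and neural progenitors, was higher in urethra at both stages with log2 fold changes of -2.82 and -4.04 that differed (interaction adjusted p = 0.0294). Rarb, a retinoic acid receptor, had 19.5 to 39.6 CPM in E14.5 bladder, against 81.65 to 110.2 CPM in E14.5 urethra, and 13.1 to 19.4 CPM in E18.5 bladder, against 37.4 to 46.7 CPM in E18.5 urethra. The averaged difference was 3.23-fold (log2 -1.69, SE 0.17, adjusted p = 7.85e-06). Rara was 1.91-fold higher in urethra (adjusted p = 3.02e-06), and these were the 2 held of 15 retinoid genes. Msx2, a homeobox target of BMP signalling, went the other way, with a 2.16-fold higher level in bladder (adjusted p = 1.58e-05) and larger at E14.5 than at E18.5 (interaction adjusted p = 0.0483).

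Krt15, Krt17, Dsc3 and Dsg3 were the 4 held of 17 basal and stratified genes, and 0 of the 17 were held in bladder. Krt17 (chromosome 11, 100256217 to 100261029), a keratin of appendage and basal cells, had 1.89, 0.342, 1.38 and 0.336 CPM in E14.5 bladder, against 231, 115, 36.9 and 121.5 CPM in E14.5 urethra. At E18.5 it had 1.00, 4.495 and 0.640 CPM in bladder, against 167, 182 and 167 CPM in urethra. The difference was 102-fold (log2 -6.68, SE 0.58, adjusted p = 3.06e-06). Krt15, a keratin of basal progenitors, was present in both tissues at far closer levels, 2.03-fold higher in urethra (adjusted p = 0.00308) with overlap at E14.5. The desmosomal cadherins Dsg3 and Dsc3 were 42.8-fold and 2.90-fold higher in urethra, and Dsg3 was at 0 CPM in 2 E14.5 bladder libraries. Krt5, the common basal keratin, passed at E14.5 alone (log2 -2.73 at E14.5 and -0.31 at E18.5). Trp63, the master factor of basal cells, passed at neither stage, with log2 fold changes of -0.54 and -0.50. Krt10, a keratin of the cells above the basal layer, was 2.92-fold higher in urethra. It was the 1 held of 19 squamous genes, a share near the 6.46% of all tested genes held in urethra. Lgals7, the galectin of stratified epithelia, was 26.3-fold higher in urethra, at 2.89 to 21.8 CPM in E14.5 urethra and 52.8 to 84.15 CPM in E18.5 urethra. Among protocadherins, Pcdhac2 was 34.0-fold, Pcdh10 7.39-fold and Pcdhb7 3.22-fold higher in urethra. Pcdhac2 shares its last exons with the other genes of its cluster, so its count may include their reads. Without replicate 1 of the E14.5 urethra 1 of the 17 basal and stratified genes was held, Krt17.

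Of 14 steroid enzyme and receptor genes, Esr1 and Pgr were held in urethra, beside Srd5a1 and Srd5a3 in bladder. Esr1 (chromosome 10, 4611593 to 5005614), the estrogen receptor alpha gene, had 4.47, 5.81, 5.11 and 5.68 CPM in E14.5 bladder, against 18, 20.0, 12.45 and 13.8 CPM in E14.5 urethra. The later stage had 11.4, 20.5 and 8.22 CPM in bladder, against 55.4, 49.1 and 46.4 CPM in urethra. Both tissues had higher values at E18.5 and their ratio stayed, at 3.38-fold in the average (log2 -1.76, SE 0.19, adjusted p = 1.13e-05), with the call kept under all 23 other fits. Pgr, the progesterone receptor gene, was 4.03-fold higher in urethra (adjusted p = 7.12e-06) at 5.68 to 9.95 CPM there. Nr3c1, the glucocorticoid receptor gene, passed at neither stage. Irs4, an adaptor of insulin and growth factor receptors, was 31.8-fold higher in urethra and was not held under 10 of the 23 other fits.

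Lgr5 (chromosome 10, 115450311 to 115587780), the R-spondin receptor known as a Wnt target and stem cell marker, had 1.92, 1.17, 2.44 and 1.85 CPM in E14.5 bladder, against 71.9, 62.9, 35.0 and 64.9 CPM in E14.5 urethra. By E18.5 it had 4.76, 2.51 and 1.62 CPM in bladder, against 61.0, 50.45 and 65.4 CPM in urethra. The tissues were far apart at both stages, with a 25.3-fold difference (log2 -4.66, SE 0.26, adjusted p = 2.20e-07). Its relative Lgr6 was 8-fold higher in urethra and Rnf43, the ubiquitin ligase that removes Wnt receptors, 2.70-fold (adjusted p = 2.12e-06). These were the 3 held of 14 Wnt target and feedback genes, against 6.46% of all tested genes held in urethra. Nkd1, Nkd2 and Notum had opposite signs at the stages, and Axin2, Lef1, Tcf7, Sp5, Apcdd1 and Dkk1 passed at E14.5 alone. The median log2 fold change of the list was -2.68 at E14.5 and -0.086 at E18.5. Of 15 Wnt ligand genes 1 was held, a share near the 8.20% of all tested genes held in bladder. It was Wnt11, higher in bladder (4.46-fold, adjusted p = 1.23e-05), at 33.5 to 43.7 CPM in E14.5 bladder, against 5.59 to 19.6 CPM in E14.5 urethra. Etv4, an ETS factor induced by FGF, had 0.399 to 3.91 CPM in E14.5 bladder, against 18.7 to 33.7 CPM in E14.5 urethra, and 1.18 to 3.92 CPM in E18.5 bladder, against 37.4 to 59.8 CPM in E18.5 urethra. Etv4 was 17.1-fold higher in urethra (adjusted p = 9.23e-06), and Spred3, an inhibitor of the same route, 2.05-fold. These were the 2 held of 15 FGF receptor and response genes.

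Notch3, a Notch receptor, was the 1 held of 17 Notch pathway genes, a share near the 6.46% of all tested genes held in urethra. It was 2.02-fold higher in urethra (adjusted p = 1.23e-05). Of 16 hedgehog pathway genes 1 was held in each tissue, near the shares of all tested genes. Opposite signs at the stages were found for 4 of the 16, against 2.95% of all tested genes. Sufu, an inhibitor of the Gli factors, was 1.58-fold higher in urethra and Scube2, which helps to release the ligand, 11.1-fold higher in bladder. Scube2 had 43.8, 18.4, 5.29 and 17.7 CPM in E14.5 bladder, against 4.40, 1.15, 1.45 and 0.709 CPM in E14.5 urethra, and its log2 fold changes were 3.48 and 3.45. Of 21 BMP pathway genes 2 were held in bladder and 1 in urethra, near the shares of all tested genes (8.20% and 6.46%). The ligands Bmp2 (3.09-fold) and Bmp3 (5.74-fold) were held in bladder, and the BMP antagonist Grem1 was held in urethra, where it stood at 0.352 to 4.74 CPM at E14.5. Bmp4, Bmp6 and Id1 had opposite signs at the stages. Eph receptors and ephrins gave 7 held genes of 19, all higher in urethra and 0 in bladder: Epha4, Ephb2, Ephb3, Ephb4, Efna3, Efna4 and Efnb2. Efna4, a membrane-anchored ligand, had 13.9 to 20.1 CPM in E14.5 bladder, against 38.9 to 49.3 CPM in E14.5 urethra, and 8.81 to 9.83 CPM in E18.5 bladder, against 30.15 to 33.7 CPM in E18.5 urethra. It was 3.07-fold higher in urethra (log2 -1.62, SE 0.094, adjusted p = 2.20e-07). Ephb2 was 2.52-fold higher (adjusted p = 2.12e-06). Tmprss2, an epithelial membrane protease regulated by androgen in the prostate, was 4.76-fold higher in bladder (adjusted p = 1.30e-05).

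**Figure D3:**
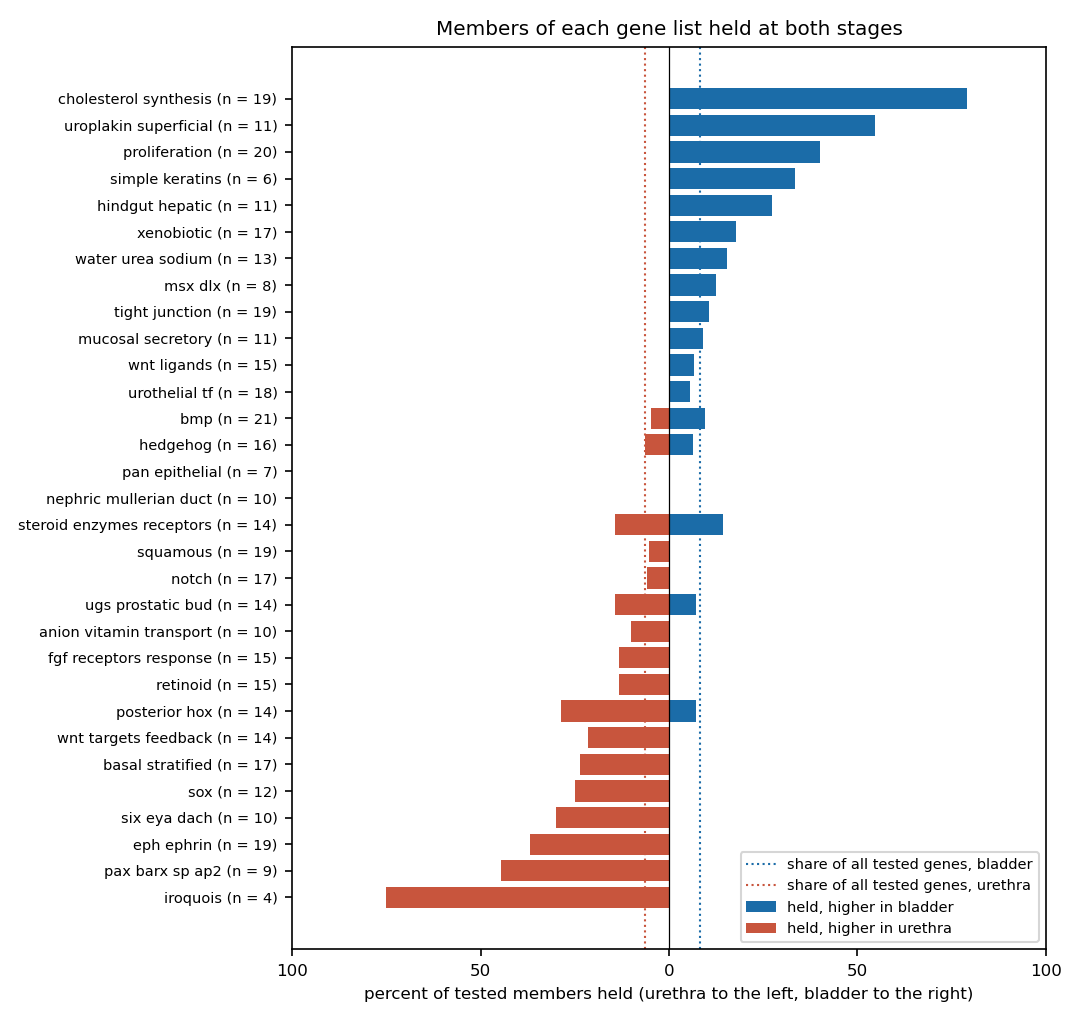
Percent of the tested members of each gene list that were held, with genes higher in bladder in blue to the right and genes higher in urethra in red to the left of 0, and the number tested in brackets. Dotted lines mark the shares over all 18286 tested genes, 8.20% in bladder and 6.46% in urethra, and cholesterol synthesis (15 of 19), uroplakin (6 of 11) and Iroquois (3 of 4) extend farthest.

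Of 20 cell cycle genes, 8 were held higher in bladder: Ccnb1, Ccnb2, Ccna2, Cdk1, Aurkb, Plk1, Cdc20 and Birc5, which act mainly in G2 and mitosis. Another 11, among them Pcna and the replication helicase genes Mcm2 to Mcm7 as well as Mki67 and Top2a, passed at E18.5 alone, where 20 of 20 were higher in bladder (18.9% of all tested genes were). The median log2 fold change of the list was 0.30 at E14.5 and 1.40 at E18.5. Ccnb2 was 2.43-fold higher in the average, with a larger difference at E18.5 than at E14.5 (interaction adjusted p = 0.0138). Without replicate 1 of the E14.5 urethra 3 of the 20 were held, Plk1, Aurkb and Birc5, and with the mesenchyme covariate 4 were. Scaled on the epithelial genes, 0 of the 20 were held and the E14.5 median was -0.73.

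How closely the size is known differed between genes. For 1797 of the 2682 held genes (67.0%) the 95% interval of the difference between the stages lay within 2-fold, 1094 of them higher in bladder and 703 in urethra. The interaction of tissue and stage, which passed for 4165 genes (22.8%), passed for 207 of the held genes (7.72%), a share lowered by the size limit of the rule. Bladder and urethral libraries did not overlap at either stage in 2344 held genes (87.4%), against 22.4% of all tested genes. The calls of the rule came from the same libraries, which raises the share of the held genes, so it is a description. The 22.4% takes in genes apart in either direction, among them 280 of the 540 genes of opposite sign. Among genes with an averaged size of at least 2-fold, the smallest stage differences belonged to Vgll3, Txnrd2, Atp13a3, Fah and Gpam in bladder and to Pcdh10, Pcdhb7, Ccdc3, Cecr2 and Irx5 in urethra. Vgll3, a cofactor of TEAD factors, had log2 fold changes of 2.04 at E14.5 and 2.03 at E18.5, with an interval of the difference from -1.05 to 1.04. Txnrd2, the mitochondrial thioredoxin reductase, was known more closely, at 1.20 and 1.19 with an interval from -0.49 to 0.46. Cecr2, a chromatin remodelling subunit, had -1.62 and -1.61, with an interval from -0.48 to 0.49. Ccdc3 had -2.36 and -2.37, yet its interval reached from -2.09 to 2.07 and its tissues overlapped. At the limit itself, Cdc20 with a stage difference of 0.996 and Ppp1r36 with -0.997 fell inside, and Hsd17b14 with -1.005 and Abtb2 with -1.001 fell outside.

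**Figure D4:**
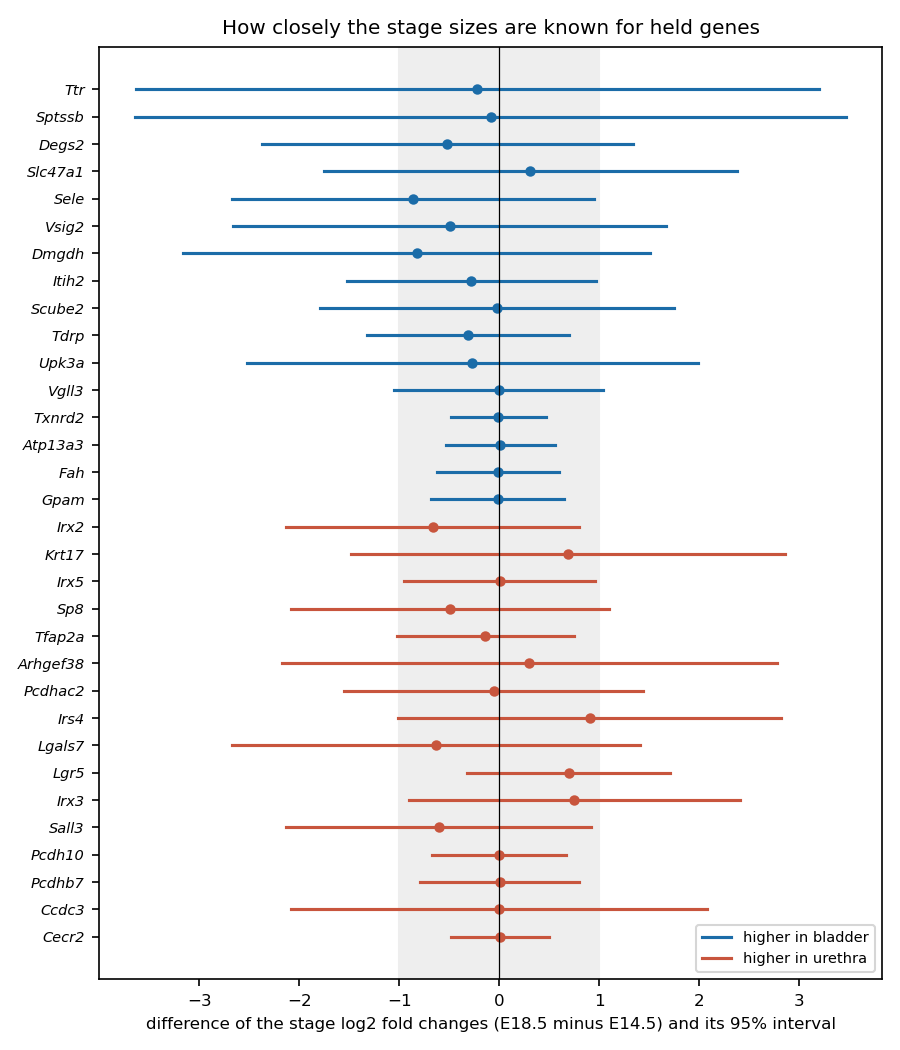
Difference of the stage log2 fold changes (E18.5 minus E14.5, x axis) and its 95% interval for 32 held genes among those with the largest and the steadiest differences, blue for genes higher in bladder and red for genes higher in urethra. The grey band marks the 2-fold limit, and intervals such as that of Sptssb (-3.64 to 3.47) reach well past it while that of Cecr2 (-0.48 to 0.49) stays inside.

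Some genes changed sides between the stages. Signs were opposite, with both stages passing, in 540 genes (2.95%), 360 of them with urethra higher first and bladder at the later stage, and 180 the reverse. Notum, a secreted Wnt inhibitor, had 0.968 to 2.32 CPM in E14.5 bladder, against 2.95 to 21.2 CPM in E14.5 urethra, and 15.7 to 27.5 CPM in E18.5 bladder, against 2.83 to 3.91 CPM in E18.5 urethra. Its averaged log2 fold change was -0.39 (adjusted p = 0.394), with an interaction of 5.98 (adjusted p = 0.000604). Cxcl14, a chemokine, Hdc, the histidine decarboxylase that makes histamine, Pamr1 and Plac8 followed the same order. Ihh, a hedgehog ligand, had 34.3, 123, 110.3 and 127 CPM in E14.5 bladder, against 13.5, 31.7, 44.4 and 8.36 CPM in E14.5 urethra. At E18.5 Ihh had 3.00, 0.762 and 0.689 CPM in bladder, against 31.7, 20.85 and 23.3 CPM in urethra, an interaction of -6.12 (adjusted p = 0.00142). The tissues overlapped at E14.5 through 1 low bladder library and did not overlap at E18.5. The anion transporter gene Slc26a9, the sarcomere gene Neb, the tetraspanin gene Tspan1 and the protease gene Prss32 turned in the same direction as Ihh. Shh, the other hedgehog ligand of this epithelium, passed at E18.5 alone. Ptch1, the receptor and target of both ligands, was higher in urethra at E14.5 (log2 -1.71) and in bladder at E18.5 (log2 1.43).

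Of the lists for mesenchyme (16 tested), smooth muscle (10), endothelium (10), leukocytes (10), mast cells (8), erythroid cells (9), skeletal muscle (10), neural and glial cells (10) and neuroendocrine cells (9), 0 members were held. The mesenchyme genes summed to 1262 to 5185 CPM in E14.5 bladder, against 3469 to 7586 CPM in E14.5 urethra, and to 21140 to 32760 CPM in E18.5 bladder, against 5138 to 6294 CPM in E18.5 urethra. Their median log2 fold change was -0.99 at E14.5 and 1.896 at E18.5. For smooth muscle the medians were -0.64 and 2.49, for endothelium -0.67 and 2.199, and for leukocytes -1.02 and 1.68. Those of skeletal muscle (-1.505 and -1.69), neural and glial cells (-1.24 and -0.55) and neuroendocrine cells (-1.805 and -3.67) were negative at both stages. Summed skeletal muscle genes overlapped at E14.5 and stood at 564.3 to 1758 CPM in E18.5 bladder, against 271.6 to 536.2 CPM in urethra. Neural and glial genes summed to 372 to 381.7 CPM in E14.5 bladder, against 259.9 to 370.3 CPM in urethra, and overlapped at E18.5. Neuroendocrine genes summed higher in urethra at E18.5, at 81.74 to 137.4 CPM, against 16.73 to 44.45 CPM in bladder. Single genes passed at both stages with opposite signs in 2 of 16 mesenchyme, 2 of 10 leukocyte, 1 of 8 mast cell and 1 of 10 skeletal muscle genes, and in 0 of the smooth muscle and endothelial genes. No gene of the mesenchyme, smooth muscle, endothelial and leukocyte lists was at 0 counts in any library, while 6 of 8 mast cell genes were at 0 in at least 1. The 7 epithelial genes had medians of 0.98 for E14.5 and -0.28 for E18.5, and 0 of the 7 were held. With the mean log2 level of the mesenchyme genes as a covariate, 1764 genes were held, 1370 of them among the 2682, and 52 genes had opposite signs. As that level was far higher in E18.5 bladder than in the other groups, this fit cannot cleanly separate it from the interaction of tissue and stage. The part of the marker lists in the single results was not tested further.

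**Figure D5:**
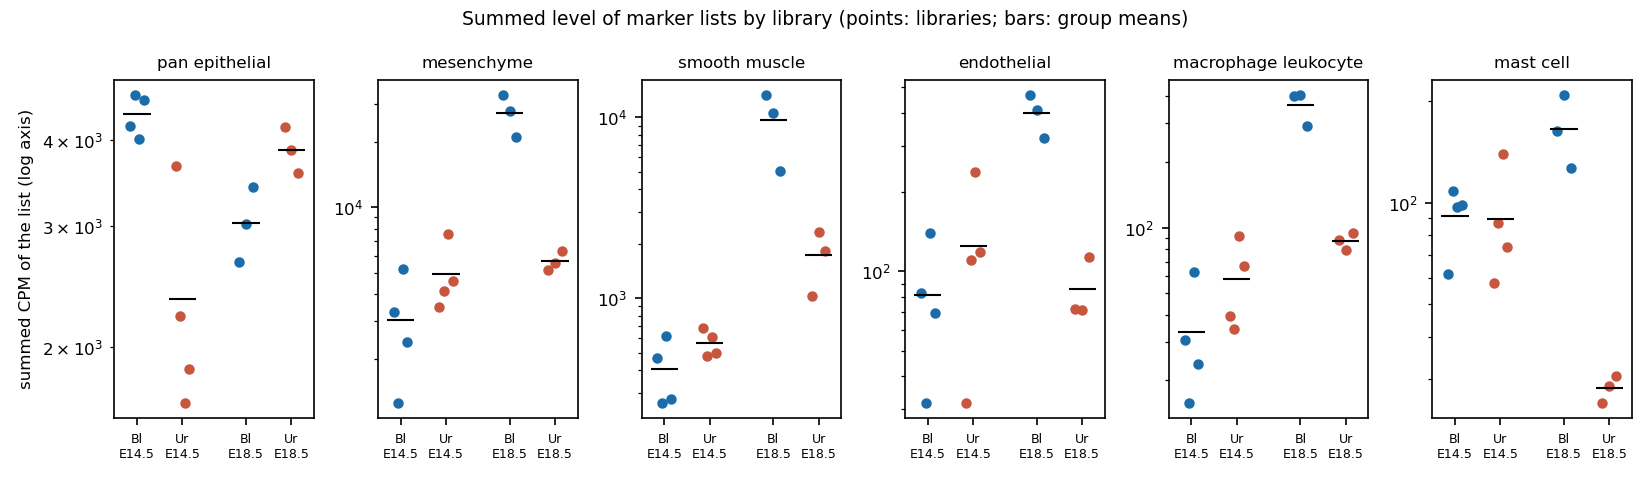
Summed level of marker lists in every library, in CPM on a log axis, with bladder libraries in blue to the left of urethral libraries in red at each stage and black bars at group means. Mesenchyme genes sum to 21140 to 32760 CPM in E18.5 bladder and 5138 to 6294 CPM in E18.5 urethra, and at E14.5 the tissues overlap.

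Under all 23 other fits 123 of the 2682 genes were held, 61 in bladder and 62 in urethra. Among the list genes they were Upk2, Msmo1, Krt8, Krt18 and Srd5a1 in bladder and Slc12a2, Esr1, Rara, Sp8, Six4, Rnf43, Notch3, Efna4 and Efnb2 in urethra. With each library left out in turn, 1330 genes (49.6%) were held every time, 714 in bladder and 616 in urethra. No held gene was held in the opposite direction under any of the 23 other fits. A stricter limit of 1.5-fold between the stages was not met by Krt8, Slc12a2, Six4 and Efnb2, and among these 14 genes the 95% interval of the stage difference lay within 2-fold for Rara, Rnf43, Notch3 and Efna4. Held genes also differed in annotated length, with a median summed exon length of 3514 bases where bladder was higher and 5775 bases where urethra was, against 3810 bases over all tested genes.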

How the data were processed

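Messenger RNA of 14 pooled epithelial samples was sequenced, and the authors deposited whole-number read counts per gene in 1 table for each stage. GRCm38, SAMtools 1.9, HISAT2 2.2.1 and bcl2fastq are named in the submitters' processing notes. How reads were counted, with which strand option and gene annotation, is not given in the sources used here, so overlapping and antisense genes cannot be told apart. Samples were grouped by the tissue and stage of their labels. Both tables were joined on gene identifiers. Counts were filtered with filterByExpr, scaled with TMM and fitted over 4 groups with edgeR 4.0.16 in R 4.3.3 (robust quasi-likelihood F test, Benjamini-Hochberg adjustment at 0.05). Shown CPM use the scaled library sizes. Depth was 21101269 to 36810672 counts. Replicate pairs differed by more than sampling noise, with a chi-square per gene of 10.3 to 106. The procedure was tested on simulated counts.

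Named genes were the 12 largest non-overlapping held differences in each direction with at least 5 CPM in the higher tissue, up to 2 held members of each list with the smallest adjusted p, the 5 steadiest and the 5 strongest opposite genes in each direction, the genes at the size limit, and a panel. Lack of overlap was required of the 12 in each direction, so for them it is a description and no support. Further list members are named where their list is described, chosen after their values were seen. The members and lists were chosen with earlier results of these data known. Alternatives were DESeq2 1.42.0, limma 3.58.1 voom, other scalings and filters, other size limits, each library left out, each stage alone, an additive model, the replicate number as a block and a mesenchyme covariate. Promoters came from RefSeq tables on GRCm38.p6. Results of a few members are not reported here.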

Additional observations from a re-analysis of the deposited data

Results flagged for a closer look

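A library stood apart from the other 3 of its group by Dixon's criterion in 21 of 210 groups of named genes (10%), where chance flags about 1 in 20. Replicate 1 of the E14.5 urethra gave 13 of them. It was the highest of its group for the bladder-side genes Upk3a (231.7 CPM), Tmprss2 (163.4 CPM), Atp13a3 (153.8 CPM), Wfdc2 (135.0 CPM), Sptssb (50.79 CPM), Ttr (35.61 CPM), Vsig2 (6.91 CPM), Dmgdh (2.377 CPM) and Mgst2 (1.585 CPM). It was also the highest for the urethral genes Arhgef38 (15.63 CPM) and Dsg3 (9.727 CPM), and the lowest for Hoxd13 (117.7 CPM) and Hoxd12 (31.78 CPM). Replicate 3 of the E14.5 urethra was the lowest for Rnf43 (85.95 CPM), Tfap2a (50.12 CPM) and Six4 (45.38 CPM). In the E14.5 bladder, replicate 1 stood apart for Krt5 (567.2 CPM), Ccna2 (131.9 CPM) and Cdc20 (86.69 CPM), and replicate 3 for Sele (27.71 CPM) and Pax9 (0.9207 CPM).

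The tissue difference itself differed between the stages by edgeR's interaction test (adjusted p under 0.05) in 27 of 105 named genes. On the log2 scale, E18.5 minus E14.5, the held genes among them were Ccna2 (0.985), Ccnb2 (0.957), Cdc20 (0.996), Slc12a2 (-0.808), Six4 (-0.642), Msx2 (-0.726) and Ppp1r36 (-0.997). Those of opposite sign were Hdc (7.076), Notum (5.976), Cxcl14 (5.563), Pamr1 (5.458), Plac8 (5.375), Ptch1 (3.136), Slc26a9 (-8.562), Ihh (-6.115), Neb (-6.098), Tspan1 (-5.704) and Prss32 (-5.323). The others were Pparg (-1.778), Foxa1 (-1.512), Cdh1 (-1.411), Hoxd13 (-1.273), Epcam (-1.226), Sox2 (-1.215), Gata3 (-1.179), Shh (-0.995) and Col1a1 (2.60).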

How the results depend on the processing

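With the mesenchyme covariate 1764 genes were held, 716 of them higher in urethra, 52 had opposite signs and 86 passed the interaction. The mesenchyme level was itself far higher in E18.5 bladder than in the other groups. In this fit it cannot be cleanly told apart from the interaction of tissue and stage, so the fall in these calls does not show its part. Scaled on the epithelial genes, 1306 averaged calls were higher in bladder, 780 genes were held (307 in bladder, 473 in urethra), 1628 had opposite signs and 12720 passed the interaction. Requiring the 95% interval within 2-fold left 703 urethral genes, and requiring at least 2-fold at both stages left 744 (293 in bladder, 451 in urethra). With each library left out in turn, held genes numbered 1990 to 2776, 1013 to 1566 in bladder and 875 to 1210 in urethra. Averaged calls numbered 7878 to 9268. Genes of opposite sign numbered 315 (without urethra E18.5 replicate 1) to 945 (without urethra E14.5 replicate 1), with 343 without bladder E18.5 replicate 1. Interaction calls numbered 2642 (without urethra E18.5 replicate 1) to 5675 (without urethra E14.5 replicate 1). The cause was not tested. Held counts under other settings were 2631 with DESeq2 size factors, 2130 with no filter, 2686 at 1 CPM, 2975 with DESeq2, 2696 with limma voom, 2373 with each stage alone, 2255 within 1.5-fold and 3086 with no limit on size.

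Whether a replicate number marks a litter shared by both tissues is not stated in the sources used here, and the main fit did not pair the tissues. Deviations of same-numbered bladder and urethral libraries from their group means correlated from -0.189 to 0.391 over 7 pairs. Of 7 bladder libraries, 3 correlated best with their own number. So few pairs cannot settle whether litters were shared. With the replicate number as a block 2602 genes were held, 2315 of them among the 2682.

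For the averaged values of named genes, 2353 kept their direction and call, 35 no longer passed, 8 newly passed and 19 changed sign. The sign changes lay in genes of opposite sign at the stages. Hdc was -0.484 without bladder E14.5 replicate 3, -0.027 with the covariate, -0.123 with epithelial scaling and -0.732 in the additive model, where Neb was 0.015. Pamr1 was 0.04 and 0.001 without bladder E14.5 replicates 2 and 4. Plac8 was 0.027 with voom, 0.194 without urethra E14.5 replicate 3, 0.231 without urethra E18.5 replicate 2 and 0.083 with the block. Slc26a9 was -0.005 with voom, -0.034 with the block, -0.21 with epithelial scaling, and -0.115, -0.132, -0.28, -0.012 and -0.03 with 1 library left out. With each library left out, Hdc ranged from -0.484 to 0.947, Pamr1 from -0.217 to 0.04, Plac8 from -0.54 to 0.231 and Slc26a9 from -0.28 to 0.282. Depth limits genes near 0 CPM, whose fitted folds depend on the prior count.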

Other observations

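Some gene families, chosen after their values were seen and given no test, lay largely on 1 side. Of 39 tested complex I subunit genes of the respiratory chain, 29 (74.4%) were held higher in bladder and 0 higher in urethra, with a median averaged log2 fold change of 0.42. Mitochondrial ribosome genes gave 27 of 79 (34.2%) in bladder, Psma and Psmb proteasome genes 6 of 17 (35.3%), and the glycosylation and secretory genes named Alg and Tmed 12 of 22 (54.5%), each with 0 in urethra. Scaled on the epithelial genes, 0 members of these 4 families were held. The complex I median was then 0.10 in the average, with -0.60 at E14.5 and 0.78 at E18.5. Medians of the other families named here were likewise negative at E14.5 and positive at E18.5.

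On the urethral side, 95 of 375 zinc finger genes named Zfp (25.3%) were held, against 4 in bladder, with a median of -0.36. Lysine demethylase and methyltransferase genes named Kdm and Kmt gave 11 of 25 (44.0%). Clustered protocadherin genes of the b group, which encode neighbouring adhesion proteins, gave 11 of 21 (52.4%, median -1.47), and those of the g group 0 of 22, with a median of -0.35. Scaled on the epithelial genes, 7 Zfp, 0 Kdm and Kmt and 0 protocadherin genes of the b group were held in urethra. Similar sequence within the Zfp and protocadherin families may split reads between members.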
